A study of Mus musculus with 8 samples.

Results

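The genes described here encode the respiratory chain and ATP synthase, the machinery of oxidative phosphorylation, and come from both the mitochondrial and the nuclear genome. They were chosen by name in the authors' comparison table, as every gene whose symbol starts with mt-, Ndufa, Ndufb, Ndufc, Ndufs, Ndufv, Uqcr, Cox4 to Cox8 or Atp5, without *Ndufa4l2* and without pseudogenes. This gave 103 of the 43629 genes of the count table. Of these, 23 lie on the mitochondrial genome, namely 11 protein genes, 2 ribosomal RNA genes and 10 transfer RNA genes. The other 80 are nuclear: 36 encode subunits of complex I, 8 of complex III, 14 of complex IV and 15 of complex V, 4 are assembly factors of complex I, and 3 (*Cox7a2l*, *Atp5s*, *Atp5sl*) are not classed as subunits. The rule is by name and uses no measured value, but it was drawn up with earlier results of these data known.

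The libraries came from the growth plate, the cartilage that lengthens bones, of 4 Axin2CreERT2;R26RTdTomato mice. All 4 mice carried both alleles, received tamoxifen on 3 consecutive days from P23 and were killed at P30. By the labels, mice 1 and 2 were males, and females were mice 6 and 13. In these mice, the *Axin2* promoter drives a tamoxifen-dependent Cre, so that red fluorescence marks cells that expressed *Axin2* at the time of the injections and their descendants. From 8 μm sections, a laser cut out fluorescent resting chondrocytes and, from the proliferative zone, unlabeled flattened chondrocytes at least 50 μm from the secondary ossification center. Each mouse gave 1 resting and 1 proliferative library (n = 4 per zone). The labels name tibiae, and the methods of the study name femurs as well. RNA was amplified by 2 rounds of in vitro transcription before the libraries were made.

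Complex I and complex III pump protons across the inner mitochondrial membrane while they pass electrons on, complex IV hands these electrons to oxygen, and complex V uses the proton gradient to make ATP. The subunits of each of these complexes come from both genomes, and the ribosomal and transfer RNAs of the mitochondrial genome serve only to translate its own few proteins. Several nuclear subunits of complex IV exist as isoforms that differ between tissues or with oxygen. The growth plate has no blood vessels, and its chondrocytes are known for a glycolytic metabolism at low oxygen.

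Totals ran from 192882 to 462044 counts per resting library and from 249284 to 631474 per proliferative library. Levels are given in CPM, counts relative to a library size that edgeR's TMM factors scale. A count of 0 allows up to 3 counts, which is 5.97 to 14.7 CPM in the resting and 4.81 to 12.4 CPM in the proliferative zone. Such limits, like the intervals of shares below, take in counting error alone, since reads amplified without molecular identifiers are not single molecules. The 6 chondrocyte markers were detected in both zones. Their summed level was 5845 to 12858 CPM in the resting and 19712 to 35907 CPM in the proliferative libraries. Of these 6 markers, 5 were called higher in the proliferative zone, where 6.06% of all tested genes were. Of 27 markers of other cells of marrow and bone, 20 were tested and 18 were called higher in the resting zone (10.2% of all tested genes). The summed level ran from 1551 to 10252 CPM against 0 to 1446 CPM for 5 erythroid markers, from 2731 to 3636 against 0 to 522 CPM for 6 neutrophil markers, and from 501 to 678 against 0 to 124 CPM for 5 macrophage markers. It was 1487 to 4520 against 14.4 to 439 CPM for 6 osteoclast markers and 6317 to 26741 against 247 to 2505 CPM for 5 osteoblast markers. Most of the osteoblast sum was *Col1a1* (15162 CPM in the mean of the resting libraries), and 2 of the 4 tested osteoblast markers were called. Of the others, *Alpl* had a log2 ratio of 0.62 (edgeR adjusted p = 0.261), and *Sp7* lay in the other direction in 4 of 4 mice, with 15.03 against 38.5 CPM (log2 ratio -1.34, edgeR adjusted p = 0.0916). In these 5 lists, 1 neutrophil, 1 macrophage and 1 osteoclast marker had no count in any proliferative library. The part of these cells in the values below was not tested, and in bulk samples, fewer cells of a type and less RNA per cell cannot be told apart.

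Low counts limited what could be tested, and what kept them low was not tested. Of the 103 genes, 31 had at least 10 counts in every library and 19 had a library without a count. The median total over all 8 libraries was 91.5 counts for a nuclear gene. edgeR's filter on low counts kept 58 genes, 16 mitochondrial and 42 nuclear, among 3793 genes in all, and 45 were left out. Zones were compared by edgeR's quasi-likelihood test, with the mouse as a block and Benjamini-Hochberg adjustment over all tested genes, which gives the edgeR adjusted p below. A gene was called at an adjusted p below 0.01 and a difference of more than 2-fold. Differences are given as log2 ratios, resting over proliferative, with the standard error (SE) or the 95% interval of the fit.

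Genes on opposite strands of the mitochondrial genome overlap at their ends, which are shown because the counts that follow differ by strand. *mt-Nd5* and *mt-Nd6* end head-on. The last 60 bases of each are given from GRCm38, 5′ to 3′, with the 14 bases that both genes cover in capitals.
mt-Nd5, chrM:13506-13565, plus strand: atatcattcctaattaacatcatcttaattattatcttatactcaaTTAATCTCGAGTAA
mt-Nd6, chrM:13552-13611, minus strand: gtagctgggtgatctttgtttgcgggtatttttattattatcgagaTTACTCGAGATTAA
The end of *mt-Co1* likewise meets *mt-Ts1*, the whole of which is shown, and *mt-Tq* overlaps *mt-Ti*. Capitals mark the 3 shared bases in each of these genes.
mt-Co1, chrM:6813-6872, plus strand: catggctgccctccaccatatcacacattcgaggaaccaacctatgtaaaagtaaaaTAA
mt-Ts1, chrM:6870-6938, minus strand: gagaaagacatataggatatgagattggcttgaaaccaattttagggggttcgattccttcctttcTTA
mt-Tq, chrM:3772-3842, minus strand: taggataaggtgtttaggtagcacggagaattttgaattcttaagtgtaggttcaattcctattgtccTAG

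Most counts of the mitochondrial genome fell on 1 gene. *mt-Nd6*, a complex I subunit and the only protein gene of the minus strand, held 66.2% to 79.9% of the mitochondrial counts of a library. The 8 genes of the minus strand together held 68.6% to 82.4%, against 15 genes on the plus strand. Per kb of gene length, *mt-Nd6* had 89073 ± 13560 CPM in resting and 74233 ± 18870 CPM in proliferative libraries (SD, n = 4 per zone). The next levels per kb were those of *mt-Ts1* (16152 CPM per kb over all libraries), *mt-Te* (3398 CPM per kb) and *mt-Tq* (3393 CPM per kb), which are transfer RNA genes of the same strand. On the plus strand, *mt-Co1*, the catalytic subunit of complex IV, had 2624 CPM per kb, *mt-Cytb* of complex III 2235 CPM per kb and *mt-Nd1* 1704 CPM per kb. The ribosomal RNAs *mt-Rnr2* and *mt-Rnr1* were at 449.7 and 430 CPM per kb.

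*mt-Nd4*, *mt-Nd5* and *mt-Nd2* of complex I had 974, 498 and 496 CPM per kb. The other protein genes of the plus strand held few counts. *mt-Nd3* had 81.0 CPM per kb. *mt-Co2* and *mt-Co3*, the other mitochondrial subunits of complex IV, had 43.1 and 14.3 CPM per kb, and *mt-Atp6* of complex V had 47.6 CPM per kb. *mt-Nd4l* and *mt-Atp8*, which the authors' table does not list, had 0 and 3 counts in all 8 libraries together. The strand setting used in the counting is not given in the sources used here. A count on a gene may therefore come from reads of that gene or of the opposite strand at the same place. In libraries of female mice, *Tsix* held 18683 counts and its opposite-strand partner *Xist* 1367, against 15 and 1 in libraries of male mice. These overlapping genes of opposite strands thus held very different counts. Which strand the counted reads came from was not tested. Levels and zone differences in this report are those of the genes as counted. The plot of mitochondrial genes by strand shows the levels of all 23 genes.

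**Figure D1:**
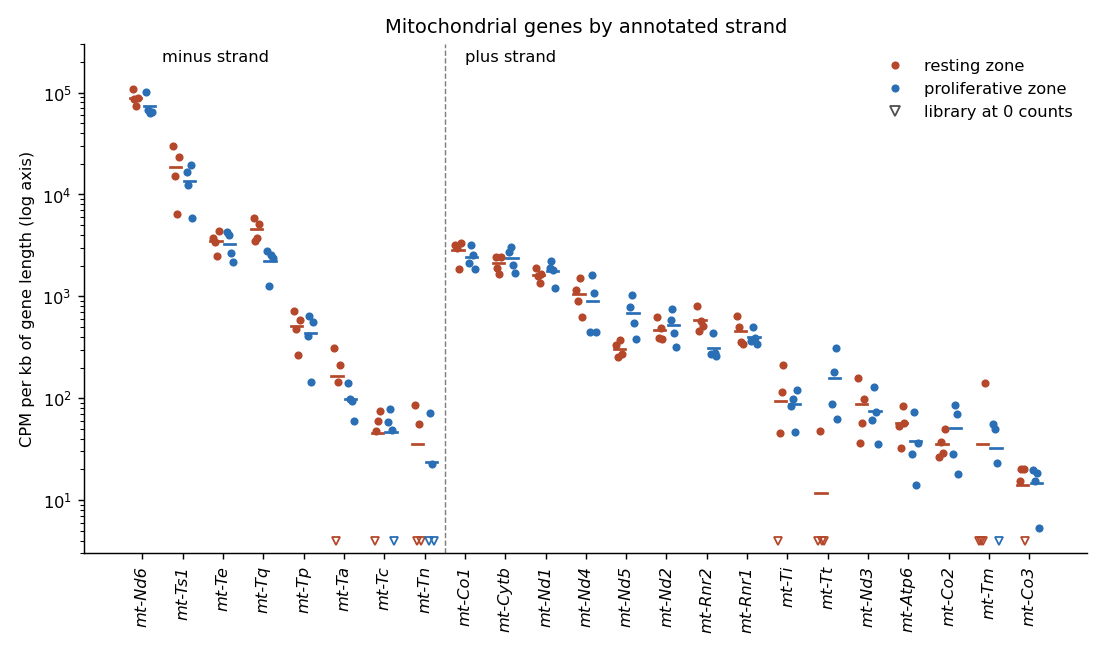
CPM per kb of gene length (log axis) of the 23 mitochondrial genes, ordered by level within the minus strand (left, 8 genes) and the plus strand (right, 15 genes). Points are libraries, bars are means of 4 libraries, and open triangles at the bottom are libraries without a count. *mt-Nd6* stands above every other gene in both zones.

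Between the zones, 3 of 16 tested mitochondrial genes had an adjusted p below 0.05, where 28.4% of all tested genes did in either direction, and 0 were called at 0.01 (background 16.2%). Counts on the large ribosomal RNA and on the transfer RNA for glutamine were higher in the resting zone, and those on *mt-Nd5* in the proliferative zone. The strand that the reads of these 3 genes came from was not tested. Levels of *mt-Rnr2* (chrM:1094-2675, plus strand) were 1279, 729, 911 and 805 CPM in the resting libraries of mice 1, 2, 6 and 13, and 427, 692, 442 and 406 CPM in the proliferative libraries. The zones did not overlap, but mouse 2 had nearly the same level in both. The log2 ratio was 0.92 (SE 0.28, edgeR adjusted p = 0.0298). The small ribosomal RNA *mt-Rnr1*, which lies beside it, had a log2 ratio of 0.17 (95% interval -0.40 to 0.74).

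*mt-Tq*, named after its values were seen, had 416, 247, 265 and 363 CPM in resting and 196, 89.0, 181 and 170 CPM in proliferative libraries of the same mice. Every resting library lay above every proliferative one, with a log2 ratio of 1.04 (SE 0.27, edgeR adjusted p = 0.0152). For *mt-Nd5* (chrM:11742-13565), a complex I subunit whose end is shown above, the resting libraries had 601, 463, 674 and 501 CPM and the proliferative libraries 1444, 1882, 1003 and 693 CPM. All 4 proliferative libraries lay above all 4 resting libraries, with a log2 ratio of -1.08 (SE 0.29, edgeR adjusted p = 0.0183). Its neighbour *mt-Nd6* had 55676, 44655, 38696 and 45889 CPM in the resting and 53115, 35255, 32554 and 33184 CPM in the proliferative zone. That gene was higher in the resting zone in 4 of 4 mice, but the zones overlapped and its log2 ratio was 0.28 (95% interval -0.13 to 0.69, edgeR adjusted p = 0.2999).

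These 3 results were close to the threshold. With both libraries of mouse 1, 2, 6 or 13 left out, the adjusted p was 0.168, 0.00933, 0.0735 and 0.132 for *mt-Rnr2*, 0.0697, 0.0608, 0.0122 and 0.0785 for *mt-Tq*, and 0.0757, 0.0695, 0.0123 and 0.0343 for *mt-Nd5*. Upper quartile scaling, which moved the median log2 ratio of all genes from 0.04 to -0.18, gave *mt-Rnr2* a log2 ratio of 0.71 (edgeR adjusted p = 0.0794). A further fit kept every gene with a count. In it edgeR estimated no spread of its own for any gene but took the value of the trend over all genes (52476 total degrees of freedom, against 7.86 to 10.9 in the fit above), so that its p-values do not carry the spread of the single gene between mice. There the edgeR adjusted p was 0.138 for *mt-Rnr2* and 0.135 for *mt-Tq*. *mt-Tq* was called by the likelihood ratio test (edgeR adjusted p = 0.00307), by DESeq2 (adjusted p = 0.00879) and with at least 10 counts in every library (edgeR adjusted p = 0.00408). In the fit of every gene, *mt-Nd5* was called with 0.000220, but not without mouse 1 (0.0174) or mouse 2 (0.0438), which was tried after the data were seen. It was also called by the likelihood ratio test (edgeR adjusted p = 0.00573), by DESeq2 (adjusted p = 0.00714), with upper quartile scaling (edgeR adjusted p = 0.00831) and with at least 10 counts in every library (edgeR adjusted p = 0.00554). The other mitochondrial protein genes showed no difference past either threshold. Log2 ratios were -0.12 for *mt-Nd1*, -0.10 for *mt-Nd2*, 0.13 for *mt-Nd3*, 0.40 for *mt-Nd4*, -0.15 for *mt-Cytb*, 0.22 for *mt-Co1*, -0.46 for *mt-Co2* and 0.73 for *mt-Atp6*. The intervals of *mt-Nd1* (-0.64 to 0.41), *mt-Cytb* (-0.69 to 0.38) and *mt-Co1* (-0.35 to 0.78) lay within a 2-fold change either way, whereas those of *mt-Nd3* (-1.28 to 1.54) and *mt-Atp6* (-0.67 to 2.13) did not. *mt-Co3* had too few counts to be tested, with 10.98 ± 7.53 CPM in resting and 11.5 ± 5.13 CPM in proliferative libraries (SD, n = 4 per zone).

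As a share of all counts of a library, the mitochondrial genes made up 7.20%, 6.06%, 5.47% and 6.42% in the resting libraries of mice 1, 2, 6 and 13. In the proliferative libraries of these mice they made up 6.27%, 4.98%, 4.56% and 4.09%. The share was higher in the resting zone in 4 of 4 mice, although the ranges overlapped, with a mean difference of 1.31 ± 0.68 percentage points (SD, n = 4). On the TMM scale, the log2 ratio of the summed counts was 0.13, 0.12, 0.13 and 0.52 in these mice. The mean of 0.22 lay 0.19 above the median log2 ratio of all tested genes. Upper quartile scaling shifted all genes by about as much, so that the sum was above 0 in 1 of 4 mice (mean 0.0073) but still 0.19 above the median of all genes. The largest half-width of a 95% Wilson interval was 0.109 percentage points. Most of the difference lay in *mt-Nd6*, with a mean of 4.81 ± 0.54% against 3.68 ± 0.88% (SD, n = 4 per zone). Without it, the share was 1.48 ± 0.19% in the resting and 1.29 ± 0.33% in the proliferative zone (SD, n = 4 per zone), higher in the resting zone in mice 1 and 13 and lower in mice 2 and 6.

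The nuclear genes together made up 0.447%, 0.470%, 0.479% and 0.433% of the counts in the resting libraries and 0.370%, 0.379%, 0.396% and 0.435% in the proliferative libraries. Mouse 13, which had the smallest libraries, was the 1 mouse of 4 without a higher share in the resting zone. The mean difference was 0.063 ± 0.043 percentage points (SD, n = 4). On the TMM scale, the mean log2 ratio of the summed nuclear genes was 0.09 ± 0.15 (SD, n = 4), 0.052 above the median of all tested genes. With upper quartile scaling it was -0.13, or 0.050 above that median. Without *Cox6a2*, the mean on the TMM scale was 0.06.

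**Figure D2:**
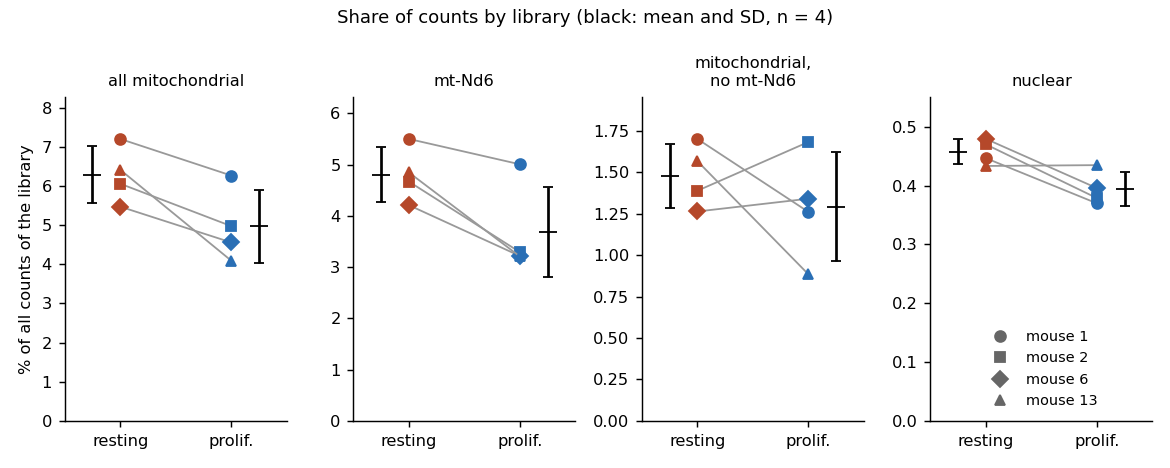
Share of all counts of a library (percent, each axis from 0) that fell on all 23 mitochondrial genes, on *mt-Nd6*, on the mitochondrial genes without *mt-Nd6* and on the 80 nuclear genes. Lines join the libraries of a mouse, and black bars give the mean and SD (n = 4). The all-mitochondrial share is lower in the proliferative library in 4 of 4 mice, but without *mt-Nd6* the mice split.

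Across both genomes, 0 of 58 tested genes were called, where 16.2% of all 3793 tested genes were called in either direction. At an unadjusted p below 0.05 there were 7 of 58 (background 38.7%). edgeR's likelihood ratio test called 3 (background 25.1%) and DESeq2 also 3 (background 20.4%). At an adjusted p below 0.05, 3 genes were higher in the resting zone (background 16.2%) and 2 in the proliferative zone (background 12.2%), which adds *Cox7a2l* and *Cox4i2* to the mitochondrial genes above. The zones did not overlap for 3 genes higher in the resting zone (background 17.8%) and 2 higher in the proliferative zone (background 15.1%), and these were the same 5 genes. A difference in the same direction in 4 of 4 mice was seen in 7 genes for the resting zone (background 24.6%) and in 6 for the proliferative zone (background 22.5%). *Cox4i2* passed the low-count filter through the proliferative zone alone, so its place in the counts of this paragraph is not independent of that selection. The 95% interval of the log2 ratio lay between -1 and 1 for 22 of 58 genes (background 12.2%), and for the other 36 genes the interval reached past a 2-fold difference. The median log2 ratio was 0.05 over the 58 genes, of which 32 were above 0, and 0.04 over all tested genes.

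**Figure D3:**
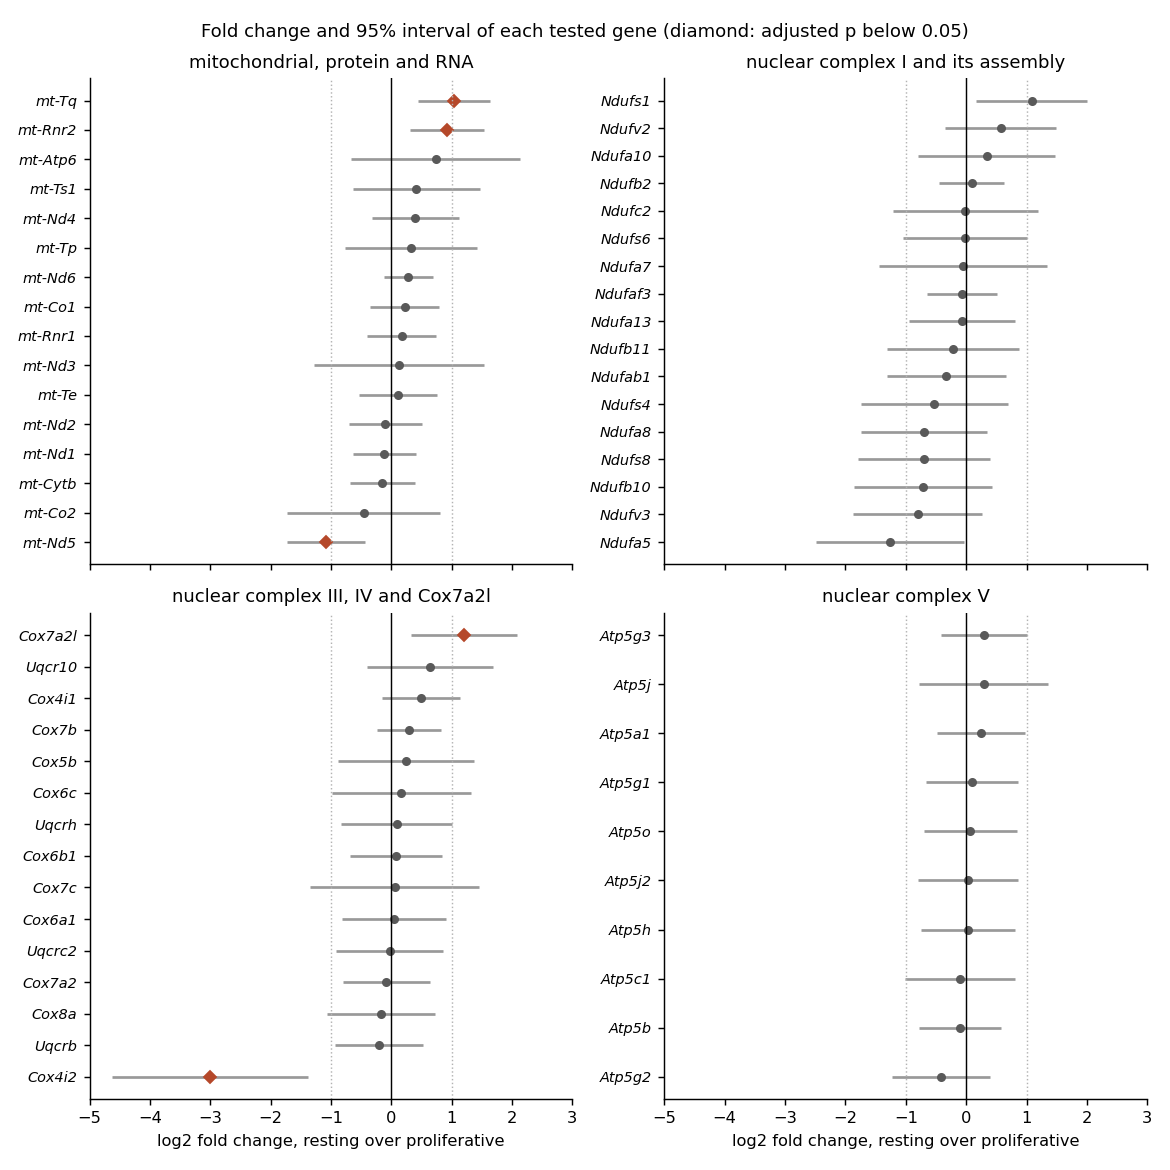
Log2 ratio, resting over proliferative, of the 58 tested genes with 95% intervals from edgeR's quasi-likelihood fit, in 4 panels by genome and complex. Diamonds mark the 5 genes with an adjusted p below 0.05, and dotted lines mark a 2-fold change. Most intervals span 0, and *Cox4i2* lies farthest from it.

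Among nuclear subunits of complex I, 16 of 36 were tested and 0 had an adjusted p below 0.05 (background 28.4%). Their median log2 ratio was -0.15, with 12 of 16 below 0, as were 1833 of all 3793 tested genes. Upper quartile scaling moved this median to -0.36, by about as much as that of all genes. *Ndufs1*, the iron-sulfur subunit that takes part in the first electron transfers, had 85.1, 85.6, 161 and 93.2 CPM in the resting libraries of mice 1, 2, 6 and 13 and 36.9, 89.0, 56.1 and 24.9 CPM in the proliferative libraries. It was higher in the resting zone in 3 of 4 mice, and the zones overlapped through mouse 2. The log2 ratio was 1.09 (95% interval 0.17 to 2.01, edgeR adjusted p = 0.0756).

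*Ndufa5*, an accessory subunit, lay in the opposite direction in 4 of 4 mice, with 15.2, 6.34, 25.9 and 19.6 CPM in the resting and 21.4, 47.9, 48.1 and 45.6 CPM in the proliferative libraries. These levels rest on 2 to 30 counts per library, and the log2 ratio of -1.27 had a 95% interval of -2.49 to -0.04 (edgeR adjusted p = 0.117). *Ndufv3*, *Ndufb10* and *Ndufs4* were also lower in the resting zone in 4 of 4 mice, with log2 ratios of -0.80, -0.72 and -0.53 whose intervals included 0. *Ndufb2*, on which more counts fell than on any other tested nuclear subunit of complex I, had 319 ± 51.5 CPM against 299 ± 50.5 CPM (SD, n = 4 per zone), a log2 ratio of 0.09 (95% interval -0.45 to 0.63). *Ndufab1*, which is also the acyl carrier protein of mitochondrial fatty acid synthesis, had a log2 ratio of -0.33 (95% interval -1.32 to 0.65). Summed over all 36 genes, with those below the filter, complex I held 0.131 ± 0.0106% of the total in resting and 0.120 ± 0.0053% in proliferative libraries (SD, n = 4 per zone), and on the TMM scale its sum was higher in the resting zone in 2 of 4 mice.

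Among 4 tested nuclear genes of complex III and 10 of complex V, 0 had an adjusted p below 0.05 (background 28.4%). For complex III, 4 of 8 were tested, with a median log2 ratio of 0.03. *Uqcrc2*, a core subunit, had 57.5 ± 16.7 CPM in resting and 59.3 ± 20.1 CPM in proliferative libraries (SD, n = 4 per zone). *Uqcrh*, the hinge protein, and *Uqcrb*, a subunit near the quinone site, had log2 ratios of 0.09 (95% interval -0.83 to 1.01) and -0.20 (95% interval -0.94 to 0.53). For complex V, 10 of 15 were tested, with a median of 0.05 and a range from -0.42 to 0.30. The catalytic subunit *Atp5b* had 157 ± 48.4 CPM against 168 ± 37.3 CPM (SD, n = 4 per zone), a log2 ratio of -0.10 (95% interval -0.78 to 0.58). The 3 genes *Atp5g1*, *Atp5g2* and *Atp5g3* encode the same mature subunit of the membrane ring, and their log2 ratios were 0.10, -0.42 and 0.30. None of the 3 intervals excluded 0.

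In complex IV, 10 of 14 nuclear genes were tested, with a median log2 ratio of 0.06. The summed share of the 14 genes was 0.126 ± 0.00903% in the resting and 0.0982 ± 0.00867% in the proliferative zone (SD, n = 4 per zone). On the TMM scale this was a log2 ratio of 0.23, 0.28, 0.31 and 0.12 in mice 1, 2, 6 and 13, above 0 in 4 of 4, with a mean 0.20 above the median of all tested genes. With upper quartile scaling, which shifted all genes alike, it was above 0 in 2 of 4 (mean 0.02), again 0.20 above that median. Much of this came from 1 gene below the filter, *Cox6a2*, described below. Without it, which was tried after the data were seen, the log2 ratio on the TMM scale was 0.18, 0.01, 0.31 and -0.04, above 0 in 3 of 4 mice (1 of 4 with upper quartile scaling), and the mean fell from 0.24 to 0.12, which is 0.078 above the median of all genes. *Cox7b*, the nuclear complex IV gene with the most counts, had 289, 339, 316 and 432 CPM in the resting and 264, 281, 255 and 311 CPM in the proliferative libraries, higher in the resting library of each mouse. Its log2 ratio of 0.30 (95% interval -0.24 to 0.83) did not pass the test (edgeR adjusted p = 0.409). *Cox6b1*, *Cox5b* and *Cox8a* had log2 ratios of 0.07, 0.24 and -0.18.

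*Cox4i2* had the lowest log2 ratio of the 58 genes. It encodes the isoform of subunit IV that is known from lung and from cells at low oxygen, and it takes the place of the common isoform *Cox4i1*. Counts of *Cox4i2* (chr2:152754173-152765037, plus strand, no overlapping exon on the other strand) were 1, 2, 7 and 0 in the resting libraries of mice 1, 2, 6 and 13 and 41, 25, 21 and 19 in the proliferative libraries. This was 3.04, 6.34, 13.9 and 0 CPM against 79.6, 42.8, 33.6 and 78.8 CPM, so that every proliferative library lay above every resting one. The log2 ratio was -2.999 (SE 0.74, 95% interval -4.62 to -1.38, edgeR adjusted p = 0.0110), just short of the threshold of 0.01. *Cox4i2* was the 1 tested gene of 58 that passed the low-count filter through the proliferative zone alone, with 0 of 4 resting libraries at the minimum of 25.2 CPM, and its test is not independent of that selection. It could not be tested where at least 10 counts were asked of every library. Without the replicate block, the adjusted p was 0.00308 and the gene was called. It was also called by the likelihood ratio test (edgeR adjusted p = 0.000142), by DESeq2 (adjusted p = 0.00155), with upper quartile scaling (edgeR adjusted p = 0.00830) and in the fit that kept all 17492 genes with a count and took their spread from the trend alone (edgeR adjusted p = 6.88e-05). With mouse 1, 2, 6 or 13 left out, the adjusted p of the quasi-likelihood test was 0.0613, 0.0190, 0.00413 and 0.0495. In the fit that kept every gene, leaving out mouse 1 also ended the call (edgeR adjusted p = 0.0217).

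The common isoform *Cox4i1* had 207, 254, 193 and 167 CPM in the resting and 126, 137, 139 and 187 CPM in the proliferative libraries. It was higher in the resting zone in 3 of 4 mice, with overlap through mouse 13 and a log2 ratio of 0.49 (95% interval -0.15 to 1.14). Chondrocyte markers were also higher in the proliferative libraries, as given above, and their part in the *Cox4i2* difference was not tested.

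*Cox6a2*, the isoform of subunit VIa typical of heart and skeletal muscle, went the other way. It fell below the filter. Its counts were 20, 70, 5 and 26 in the resting libraries of mice 1, 2, 6 and 13 and 10, 0, 4 and 0 in the proliferative libraries, or 60.8, 222, 9.95 and 128 CPM against 19.4, 0, 6.41 and 0 CPM. The resting library was the higher one in 4 of 4 mice, but the zones overlapped, since the resting library of mouse 6 lay below the proliferative library of mouse 1 (exact permutation test, two-sided, p = 0.0571, where 0.0286 is the smallest p that 4 libraries against 4 allow). In the fit that kept every gene with a count, with the spread taken from the trend alone and 6.31% of genes called, its log2 ratio was 3.21 (SE 0.65, edgeR adjusted p = 2.67e-05). There, leaving out mouse 2, which was tried after the data were seen, gave a log2 ratio of 2.09 and an adjusted p of 0.0959, so that the call was lost. *Cox4i2* and *mt-Nd5* were the only other members called in that fit.

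Of 8 skeletal muscle markers, 5 had no count in any library, and their summed level was at most 3.17 CPM in the resting and 14.4 CPM in the proliferative libraries. *Cox6a2* (chr7:128205435-128206387, minus strand) shares 70 exonic bases with *Itgad* on the plus strand, the gene of a leukocyte integrin, which had 22 counts in all and 17.7 ± 21.0 CPM against 1.37 ± 1.84 CPM (SD, n = 4 per zone). The part of *Itgad* reads in the *Cox6a2* row was not tested. The common isoform *Cox6a1* had 134, 146, 129 and 44.2 CPM in the resting and 97.1, 116, 91.3 and 129 CPM in the proliferative zone, a log2 ratio of 0.04 (95% interval -0.82 to 0.90).

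Among the isoforms of subunit VIIa, *Cox7a2* had 137, 127, 65.7 and 137 CPM in the resting and 130, 113, 119 and 112 CPM in the proliferative libraries. In mice 1, 2 and 13 the resting library was slightly higher, and the log2 ratio was -0.08 (95% interval -0.81 to 0.64). The muscle isoform *Cox7a1*, outside the authors' table, had 3 counts in all. *Cox7a2l*, a related protein known for holding complex III and complex IV together in supercomplexes, had 88.1, 79.2, 67.6 and 68.7 CPM in the resting and 27.2, 32.5, 35.2 and 37.3 CPM in the proliferative libraries. All resting libraries lay above all proliferative ones, on 14 to 34 counts against 9 to 22. The log2 ratio of *Cox7a2l* (chr17:83501918-83517330, minus strand) was 1.20 (SE 0.40, 95% interval 0.33 to 2.08, edgeR adjusted p = 0.0428). Leaving out mouse 1, 2, 6 or 13 gave an edgeR adjusted p of 0.180, 0.124, 0.0701 and 0.0910. Upper quartile scaling gave 0.0851, and the fit of every gene with a count gave 0.292 with a log2 ratio of 0.98. Each of these adjusted p-values lay above 0.05, and the gene was not called in the main fit either.

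**Figure D4:**
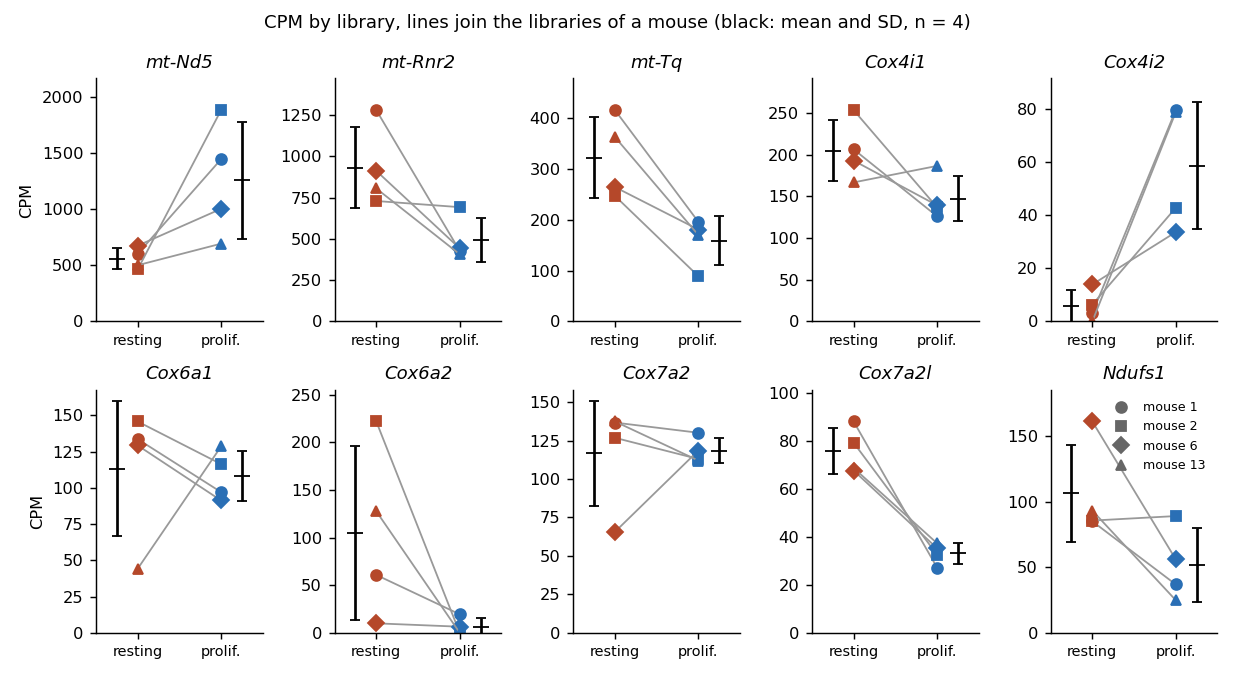
CPM (each axis from 0) of 10 genes by library, with lines joining the libraries of a mouse and black bars for the mean and SD (n = 4, lower bars end at 0). The zones separate for *mt-Nd5*, *mt-Rnr2*, *mt-Tq*, *Cox4i2* and *Cox7a2l*, and overlap for *Cox4i1*, *Cox6a1*, *Cox6a2*, *Cox7a2* and *Ndufs1*.

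Of the isoform pairs that remain, *Cox6b2*, a testis isoform, had at most 1 count per library, and *Cox8b* had none. *Cox5a* and *Ndufa4*, which is counted here with complex IV, were below the filter, at 19.6 ± 16.0 against 21.2 ± 3.38 CPM and 13.4 ± 2.985 against 13.2 ± 6.17 CPM (SD, n = 4 per zone). Among the 4 assembly factors of complex I, only *Ndufaf3* was tested. It had 401, 593, 396 and 427 CPM in the resting and 412, 392, 564 and 535 CPM in the proliferative libraries, with mixed directions among the mice and a log2 ratio of -0.07 (95% interval -0.65 to 0.51).

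Neighbours on the opposite strand were looked up for the nuclear genes. Of the 80 nuclear genes, 28 had an exon that overlaps an exon of a gene on the other strand in the GENCODE M21 annotation, and the count table held 24 of these neighbours. In 7 of the 24 pairs the neighbour had more than 5 times the counts of the respiratory chain gene. *Cox5a* had 74 counts in all libraries and *Gm26631*, which overlaps it by 269 bases, had 11742. *Ndufb6* had 81 counts and *Smim27* 8114, on an overlap of 257 bases. *Ndufb5* had 46 counts and *Mrpl47*, a gene of the mitochondrial ribosome, 4187. *Atp5d* and *Cbarp* had 63 and 2090 counts, *Uqcrc2* and *Pdzd9* 201 and 1015, *Ndufa2* and *Tmco6* 65 and 749, and *Ndufs3* and *Kbtbd4* 51 and 541.

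None of these 7 neighbours had a zone difference past either threshold. *Gm26631* had 3327 ± 445 CPM in resting and 3584 ± 1247 CPM in proliferative libraries (SD, n = 4 per zone), a log2 ratio of -0.06 (95% interval -0.57 to 0.46), and *Mrpl47* had a log2 ratio of -0.05 (95% interval -0.56 to 0.46). The neighbour of *Atp5d*, *Cbarp*, had 825 ± 288 CPM against 541 ± 56.0 CPM (SD, n = 4 per zone), a log2 ratio of 0.54 (95% interval -0.0079 to 1.09, edgeR adjusted p = 0.135). For *Smim27* the log2 ratio was -0.17, and for *Pdzd9*, *Tmco6* and *Kbtbd4* it was 0.02, -0.35 and 0.14. Whether reads of the respiratory chain genes were counted on these neighbours was not tested.

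**Figure D5:**
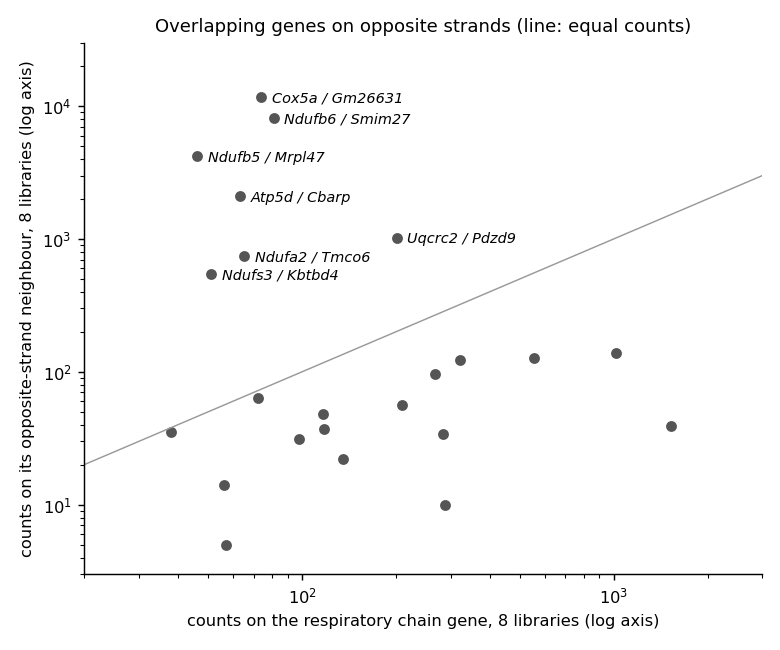
Counts over all 8 libraries on a nuclear respiratory chain gene (x axis, log) and on the gene that overlaps it on the opposite strand (y axis, log), for the pairs whose neighbour had a count. The line marks equal counts. The 7 named pairs lie above it, led by *Cox5a* with *Gm26631*.

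Letters of known promoter motifs, which the choice by name did not use, were counted for the nuclear genes. RefSeq promoters (GRCm38.p6, 250 bases before to 50 after the start) were matched for 66 of the 80, and short motifs were searched on both strands in these and in 27025 promoters in all. The core of the NRF1 site, GCGCATGC, stood in 15.2% of the matched promoters and in 3.05% of all promoters. The YY1 core GCCATNTT stood in 27.3% against 6.96%, and the ETS core CCGGAAG, which GABP binds, in 21.2% against 9.93%. The core of the hypoxia response element, ACGTG, stood in 22.7% against 21.8%. These shares describe letters in a window and are not binding sites. The member with the highest count that carries each of the NRF1 and YY1 cores is shown as an example, with the match in capitals, and the zone differences of both genes, 0.04 and -0.07 on the log2 scale, are given above.
Cox6a1, chr5:115348909-115349208, minus strand, NRF1 core on both strands: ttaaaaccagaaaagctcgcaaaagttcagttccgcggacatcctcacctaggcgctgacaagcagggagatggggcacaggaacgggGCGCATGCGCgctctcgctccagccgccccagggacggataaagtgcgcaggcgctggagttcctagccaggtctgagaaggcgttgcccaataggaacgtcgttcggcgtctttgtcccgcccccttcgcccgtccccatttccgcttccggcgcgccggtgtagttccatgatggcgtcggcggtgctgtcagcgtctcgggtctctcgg
Ndufaf3, chr9:108567387-108567686, minus strand, YY1 core: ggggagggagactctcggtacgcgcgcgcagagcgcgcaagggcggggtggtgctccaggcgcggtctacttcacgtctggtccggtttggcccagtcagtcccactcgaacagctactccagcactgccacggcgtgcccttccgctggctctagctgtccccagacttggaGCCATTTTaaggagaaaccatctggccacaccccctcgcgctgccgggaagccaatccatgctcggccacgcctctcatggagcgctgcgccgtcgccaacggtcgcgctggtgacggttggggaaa

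Other genes of mitochondrial metabolism were tested in the same fit, in which 10.2% of all tested genes were called higher in the resting and 6.06% in the proliferative zone. Of complex II, the entry of electrons from succinate, 1 of 4 genes was tested (*Sdhb*, log2 ratio 0.24, edgeR adjusted p = 0.688). Of 10 electron carriers and exchangers, 6 were tested and 0 were called. The phosphate carrier *Slc25a3* had a log2 ratio of 0.38 and the adenine nucleotide carrier *Slc25a4* of -0.33. Of 82 genes named for the mitochondrial ribosome, 5 of them pseudogenes by name, 11 were tested and 0 called, and the median log2 ratio was -0.05. *Mrpl42*, which passed the filter through the proliferative zone alone, was lower in the resting zone, with a log2 ratio of -1.42 (edgeR adjusted p = 0.0496).

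Of 22 genes of the citric acid cycle and pyruvate entry, 12 were tested and 0 called, with a median of 0.00. *Pdk1*, the kinase that switches pyruvate dehydrogenase off, had a log2 ratio of -1.62 (edgeR adjusted p = 0.0130), and *Mpc1*, a subunit of the pyruvate carrier, of -1.89 (edgeR adjusted p = 0.0374). *Mpc1* passed the filter through the proliferative zone alone and overlaps *4930506C21Rik*. *Pdha1*, a subunit of pyruvate dehydrogenase itself, had 1.36 (edgeR adjusted p = 0.0160), and it overlaps *Map3k15* on the opposite strand. Each of these 3 genes had 1 direction in 4 of 4 mice. Of 33 assembly genes, 7 were tested and 1 was called. This was *Cox15*, an enzyme of heme A synthesis for complex IV, with 259 CPM in the resting and 1348 CPM in the proliferative zone and a log2 ratio of -2.38 (edgeR adjusted p = 0.000223). It overlaps *Entpd7*. The ATP synthase inhibitor gene *Atpif1*, which overlaps *Gm12999*, had 1.80 (edgeR adjusted p = 0.0358).

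Of 15 genes that express or copy the mitochondrial genome, 5 were tested. *Tfb1m*, a methyltransferase of mitochondrial ribosomal RNA that overlaps *Tiam2*, was called higher in the proliferative zone, with a log2 ratio of -1.999 (edgeR adjusted p = 0.00160). The part of *Tiam2* reads in its counts was not tested. Of 11 biogenesis regulators, 2 were tested and 0 called, and the nuclear receptor *Esrra* had a log2 ratio of -0.84 (edgeR adjusted p = 0.0310). *Esrra* overlaps *Trmt112* on the opposite strand.

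Calls were made among genes of mitophagy and of the switch to low oxygen. Of 11 genes on this list, which includes *Cox4i2*, 7 were tested, 3 were called higher in the proliferative zone and 1 in the resting zone, and *Cox4i2* was not among these calls. The list was drawn up with earlier results of these data known. *Bnip3* and *Cox4i2* passed the low-count filter through the proliferative zone alone, *Higd1a* and *Ndufa4l2* with 1 of 4 resting libraries at its minimum and *Ucp2* with 1 of 4 proliferative libraries. Of all tested genes, 6.06% were called higher in the proliferative and 10.2% in the resting zone. Because of the choice and the filter, the counts of this list are a description and no comparison with these shares. *Bnip3*, a mitophagy receptor, had 10.5 CPM in the resting and 241 CPM in the proliferative zone, a log2 ratio of -4.42 (edgeR adjusted p = 0.000150). *Higd1a*, a small protein of the inner membrane, had -2.97 (edgeR adjusted p = 0.000446), and *Ndufa4l2*, the hypoxia-induced paralog of *Ndufa4*, -2.19 (edgeR adjusted p = 0.00748). *Hif1a* had -1.49 (edgeR adjusted p = 0.0313). *Bnip3l*, also tested on this list, had -0.34 (edgeR adjusted p = 0.522). The uncoupling protein gene *Ucp2*, which macrophages and other leukocytes are also known to express, had 4.08 (edgeR adjusted p = 0.000430). In the resting libraries, most tested markers of marrow and bone cells were higher and chondrocyte markers lower, as given above. The part of these cells in the differences of this list was not tested. *Bnip3*, *Higd1a*, *Ndufa4l2*, *Hif1a* and *Ucp2* overlap *Gm45507*, *Gm47112*, *Shmt2*, *Gm15283* and *Dnajb13* on the opposite strand. Here and in the lists above, the part of opposite-strand reads in the counts was not tested.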

How the data were processed

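RNA of laser-microdissected resting and proliferative zone chondrocytes was sequenced in 8 libraries from 4 mice. Zone, mouse and sex came from the sample labels. The authors trimmed the reads, and the submitters' processing notes name HISAT2 2.1.0, HTSeq 0.11.2 and GRCm38. The authors deposited raw counts of 43629 genes without normalization. Their strand setting is not given in the sources used here. A second deposited table gave the gene symbols. Its 8 signal columns, 1 for each library, and the authors' fold changes, test scores and p-values were not used.

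The counts were analysed with edgeR 4.0.16 in R 4.3.3. Library sizes were scaled by TMM (factors 0.934 to 1.09), genes were filtered by zone (minimum count 10, minimum total 15), and the quasi-likelihood test was fitted with mouse and zone as terms (common biological coefficient of variation 0.369). The p-values were adjusted over all 3793 tested genes by the Benjamini-Hochberg method. The mouse block was the main design because the comparison is within animals. The labels give the same mouse number to both libraries of an animal. After removal of zone means, same-mouse correlations across genes were 0.165, 0.0136, 0.137 and 0.0577 for mice 1, 2, 6 and 13, and the means with other mice lay between -0.0539 and -0.00533. With 1 library per mouse and zone, p-values rest on 4 animals.

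Alternatives were the fit without the block, the likelihood ratio test, DESeq2 1.42.0, other scaling factors, library sizes without mitochondrial genes, other filters, another call rule, and each mouse left out. Classes were summed as shares of counts and described without a test. Named genes were all mitochondrial protein and ribosomal RNA genes, called nuclear genes, the 3 structural subunits per complex with the highest mean CPM, isoform groups, and up to 3 genes per further list with the lowest adjusted p. Genes outside this rule (*mt-Tq*, *mt-Ts1*, *mt-Te*, *Ndufa5*, *Ndufv3*, *Ndufb10*, *Ndufs4*, *Ndufaf3*, *Ndufa4l2*, *Hif1a*, *Bnip3l*, the osteoblast markers and the opposite-strand neighbours) were chosen after their values were seen. The members and lists were chosen with earlier results of these data known. Overlaps and coordinates came from GENCODE M21 on GRCm38, a release that may differ from the authors'. The fit was tested on simulated counts of this comparison: of 169 genes changed 4-fold among 3551 that passed the filter, 92.3% were recovered at an adjusted p below 0.05, with 9 false calls.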

Additional observations from a re-analysis of the deposited data

Results flagged for a closer look

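Among 80 groups of 4 libraries screened, 6 held a library far from the other 3, where chance alone gives about 1 in 20 groups. In the resting zone these were *Cox6a1* (44.2 CPM in mouse 13), *Cox6b2* (1.99 CPM in mouse 6, a single count), *Cox7a2* (65.7 CPM in mouse 6) and *Ndufs1* (161 CPM in mouse 6). In the proliferative zone they were *mt-Nd6* (53115 CPM in mouse 1) and *mt-Rnr2* (692 CPM in mouse 2). For *Uqcrc2*, the mean log2 ratio of resting over proliferative zone was 0.88 higher in the male than in the female mice, since both males were higher in the resting zone and both females lower. In a fit with a zone by sex term, 0 of 58 respiratory chain genes had an adjusted p below 0.05 by edgeR's quasi-likelihood test, and 1 had an unadjusted p below 0.05, against 190 of 3793 genes. For *Uqcrc2* that term had an edgeR adjusted p of 0.994.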

How the results depend on the processing

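The number of respiratory chain genes called was 0 in either direction with relative log expression factors and with library sizes that left out mitochondrial genes. It was 1 in the resting and 2 in the proliferative zone with DESeq2, with the likelihood ratio test and with every gene that had a count, 1 and 1 with at least 10 counts in every library, 0 and 2 with upper quartile factors, 0 and 1 with no replicate block, and 3 and 2 at an adjusted p below 0.05 with no fold minimum. With a mouse left out it ran from 0 to 1 in each zone. *Cox4i2* was the call gained without the replicate block, which changed no other call at 0.01 among these genes. With all mice kept, counts over all genes ranged from 143 (at least 10 counts everywhere) to 659 (at least 1 count) for the resting zone against 385, and from 153 to 445 for the proliferative zone against 230, with 396 by the likelihood ratio test. Without mouse 13 they were 151 and 71, and without mouse 1 there were 117 in the proliferative zone. Of 382 values of named respiratory chain genes under the alternatives, 367 stayed on the same side of the threshold and 15 passed it. No such gene was called in the main fit, so that a value could only gain a call. Among the 382 values, 39 changed sign. The 58 values of the 5 genes with an adjusted p below 0.05 had 0 sign changes, but these genes were picked by the same data. Upper quartile scaling took the medians of complexes III, IV and V and of the mitochondrial genes from 0.03, 0.06, 0.05 and 0.19 to -0.19, -0.15, -0.16 and -0.02, while that of all genes went from 0.04 to -0.18. The mitochondrial share difference was 1.19 percentage points with protein genes only and 0.977 to 1.45 with a mouse left out. The nuclear one was 0.0556 with structural subunits only, 0.0523 without *Cox6a2* and 0.0530 to 0.0839 with a mouse left out. Median totals of 91.5 counts limit the nuclear genes, and for 36 of 58 tested genes the interval reached past a 2-fold difference. In the fit of every gene with a count, which gave all genes the spread of the trend, *Cox6a2* had a log2 ratio of 2.09 to 4.51, *Cox4i2* of -4.25 to -2.74 and *mt-Nd5* of -1.54 to -0.97 with a mouse left out.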
